A study of Mus musculus with 15 samples.

Results

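The mitochondrial ribosomal protein genes were followed in microglia derived from mouse embryonic stem cells. Members were all genes of the expression table whose symbol begins with Mrpl or Mrps followed by a number, and 77 of the 11201 genes met this rule. Of these, 48 carry an Mrpl symbol, for the large subunit of the mitochondrial ribosome, and 29 an Mrps symbol, for the small subunit. The rule read only symbols and no measured value entered it, but the family was chosen with earlier results of these data known. All 77 passed the filter on low values, and the lowest value of any member in any library was 47.63.

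The study measured activation states of ESdM, the submitters' name for these microglia. The cells came from C57BL/6-ATCC ES cells and grew in N2 medium. They were left untreated (6 libraries) or stimulated for 24 h with LPS at 500 ng/ml plus IFNg at 20 ng/ml, with IL4 at 100 U/ml, or with TGFb at 50 ng/ml (3 libraries each). LPS is a bacterial cell wall lipid and IFNg the interferon of activated lymphocytes, a pair that drives inflammatory activation; IL4 and TGFb are cytokines tied to alternative and to homeostatic or dampened states. All groups share the cell source, and no label says whether libraries came from separate cultures: p-values compare groups with a library-to-library spread that could be technical only.

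The values are normalized read counts, scaled by the authors with 1 factor per library. Estimated reads per library ran from 2682564 to 18676181, with a median of 7589049, and the shallowest libraries were untreated replicates 1 and 4 and TGFb replicate 2. Of 15 microglial markers 11 were among the genes analysed here, with a summed level of 21580 to 23050 in untreated, 19893 to 22277 in LPS+IFNg, 24305 to 24791 in IL4 and 28181 to 29841 in TGFb libraries. None of 10 embryonic stem cell markers and none of 9 neuronal markers was among them. The 2 astrocyte markers that were, Aldh1l1 and Slc1a2, summed to 39.6 to 80.9 in untreated 100 to 111 in LPS+IFNg, 72.7 to 109 in IL4 and 65.7 to 85.4 in TGFb libraries. The part of these differences in the results was not tested. In bulk samples, fewer cells of a type and less RNA per cell cannot be told apart.

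Mitochondria carry their own ribosome, which translates the few membrane proteins of the respiratory chain that the mitochondrial genome encodes. Its RNAs are mitochondrial, but every one of its proteins is encoded in the nucleus, made on cytosolic ribosomes and imported. Many of these proteins descend from bacterial ribosomal proteins, and others, specific to mitochondria, were added as the RNAs shrank. Symbol and place in the structure differ for a few members: Mrps18a and Mrps30 sit in the large subunit, and Mrps36 is now known as a component of the oxoglutarate dehydrogenase complex.

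The promoters of mitochondrial ribosomal protein genes are known for sites of factors such as NRF1, ETS proteins (among them GABP) and YY1. RefSeq promoter windows (GRCm38.p6, 250 bases before to 50 after the start) were matched for 68 of the 77 members. For 57 of these, bases after the start were also found in an annotated transcript of the gene. For 3 members with more than 1 window the first was used, and the shares are over all 68. The YY1 letters AAGATGGC, on either strand, were found in 17.6% of the members' windows, 5.14% of the windows of all genes in the table and 2.88% of all windows. Most of the members' YY1 matches began 11 (Mrps18a) to 36 (Mrps24) bases after the start, not upstream of it. For the ETS letters CCGGAAGT these shares were 16.2%, 9.31% and 4%, and for the NRF1 core letters GCATGCGC 11.8%, 6% and 2.8%. The GC box GGGCGG was found in 50% of the members' windows and 65.9% of those of the table's genes. The letters TTCNNNGAA of an interferon-type GAS element were found in 8.82% of the members' windows against 6.76% for the table's genes. Those of a palindromic SMAD site, GTCTAGAC, were in 0 of 68 members' windows and 0.199% of the table's. Matches are descriptions of letters, not sites.

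Printed here are the 150 bases before the start of 6 members on which the results turn: Mrpl52 and Mrpl41 with the largest rise and fall, Mrpl9, Mrpl20 and Mrps25, which led the genes higher with IL4 than with TGFb, and Mrps26, the small-subunit gene that fell most with LPS+IFNg. Only members with at most 30 bases of annotated UTR in the stretch were taken. Capitals mark the NRF1 core in Mrpl9, which matches on both strands in overlapping positions, the CACGTG of an E-box in Mrpl20, and in Mrps26 a GC box followed by the ETS letters, both on the opposite strand; no match to the letters of these motifs or of YY1 was found in the other stretches, which are in lower case. Also left in lower case are a GAS match in Mrps25 (TTCTGTGAA, 121 to 113 bases before the start) and a match to the core of an interferon response element at the far end of the Mrpl20 stretch. Positions are GRCm38.
Mrpl52 (chr14:54426759-54426908, plus strand): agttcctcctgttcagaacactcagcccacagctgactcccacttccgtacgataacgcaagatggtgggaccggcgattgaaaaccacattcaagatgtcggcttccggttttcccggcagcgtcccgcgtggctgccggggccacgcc
Mrpl41 (chr2:24975099-24975248, minus strand): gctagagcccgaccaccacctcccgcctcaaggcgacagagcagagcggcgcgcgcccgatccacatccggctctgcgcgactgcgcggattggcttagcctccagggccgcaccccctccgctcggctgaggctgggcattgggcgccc
Mrpl9 (chr3:94443186-94443335, plus strand): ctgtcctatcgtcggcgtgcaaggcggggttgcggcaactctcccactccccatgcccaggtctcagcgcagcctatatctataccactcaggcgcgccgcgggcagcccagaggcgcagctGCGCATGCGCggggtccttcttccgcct
Mrpl20 (chr4:155802728-155802877, plus strand): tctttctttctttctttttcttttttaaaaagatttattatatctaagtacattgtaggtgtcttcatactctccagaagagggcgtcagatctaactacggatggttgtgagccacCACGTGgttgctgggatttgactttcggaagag
Mrps26 (chr2:130563607-130563756, plus strand): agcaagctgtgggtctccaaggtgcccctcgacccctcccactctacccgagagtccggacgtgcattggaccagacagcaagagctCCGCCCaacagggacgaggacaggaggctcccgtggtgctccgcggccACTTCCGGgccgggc
Mrps25 (chr6:92184024-92184173, minus strand): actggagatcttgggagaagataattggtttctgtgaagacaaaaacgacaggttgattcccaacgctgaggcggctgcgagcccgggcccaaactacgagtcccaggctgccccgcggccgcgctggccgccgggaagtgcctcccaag

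Levels among the members spanned a wide range. Per kb of the longest coding transcript, Mrps21 had the highest untreated level, 1403 ± 32.6 (SD, n = 6) normalized counts per kb, followed by Mrpl24 at 1128 ± 44.6 and Mrpl12 at 1095 ± 31.6. Mrpl12 forms the stalk that recruits translation factors. The SDs of Mrpl24 and Mrpl12 overlap, so these neighbours in the order do not differ beyond their spread. The lowest were Mrpl32 at 49.2 ± 8.67, Mrpl48 at 35.9 ± 4.03 and Mrpl47 at 27.7 ± 3.41. Mrpl48 ranked 76 of 77 by its longest transcript but 58 by its median transcript length, whereas Mrpl47 was last on both scales. Some members moved further, such as Mrpl17 from rank 73 to 16 and Mrps17 from 69 to 18. Much of the order thus depends on the transcript length used, though Mrps21, Mrpl24 and Mrpl12 ranked 1, 2 and 3 on both scales. Mrpl24 was called with no stimulus: its untreated libraries ran from 1440 to 1600 with a median of 1495, and LPS+IFNg (1543, 1505, 1502), IL4 (1609, 1573, 1626) and TGFb (1508, 1603, 1544) libraries passed no test against untreated (limma adjusted p = 0.905, 0.183 and 0.468).

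**Figure D1:**
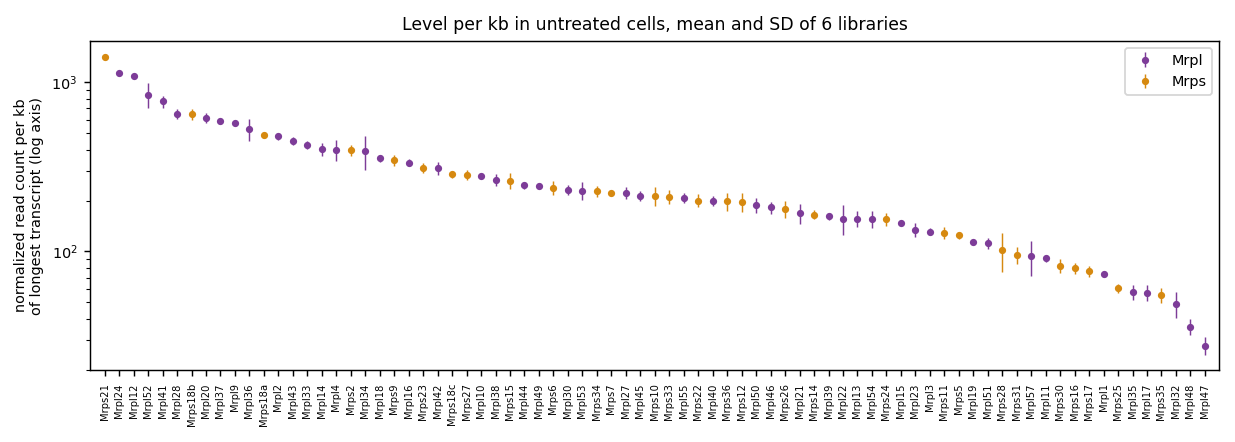
Untreated level of each of the 77 genes in normalized read counts per kb of the longest transcript (log axis), in descending order; points are means and bars SDs of 6 libraries, purple for Mrpl and orange for Mrps. Levels run from 1403 for Mrps21 to 27.7 for Mrpl47, with both subunits spread along the order.

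The members were also summed over each subunit. The Mrpl sum was 19721 ± 335 (SD, n = 6) in untreated, 20419 ± 709 (n = 3) in LPS+IFNg, 20512 ± 1256 (n = 3) in IL4 and 18548 ± 220 (n = 3) in TGFb libraries. The Mrps sum was 10237 ± 133, 9539 ± 245, 10649 ± 374 and 9013 ± 123 in the same order. The ratio of the Mrps to the Mrpl sum, which does not depend on the scaling of a library, was 0.5074 to 0.5344 in untreated libraries. It was 0.4634 to 0.4729 with LPS+IFNg and 0.4763 to 0.495 with TGFb, below every untreated library, and 0.5049 to 0.5376 with IL4, where the ranges overlapped. These sums weigh the abundant members most and carry no test. The Mrpl sum includes Mrpl52, which read 322 to 478 in untreated and 849 to 942 in TGFb libraries. How far the lower ratio with TGFb comes from this gene was not tested. The median log2 fold change with TGFb was -0.07 over the Mrpl genes and -0.18 over the Mrps genes.

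**Figure D2:**
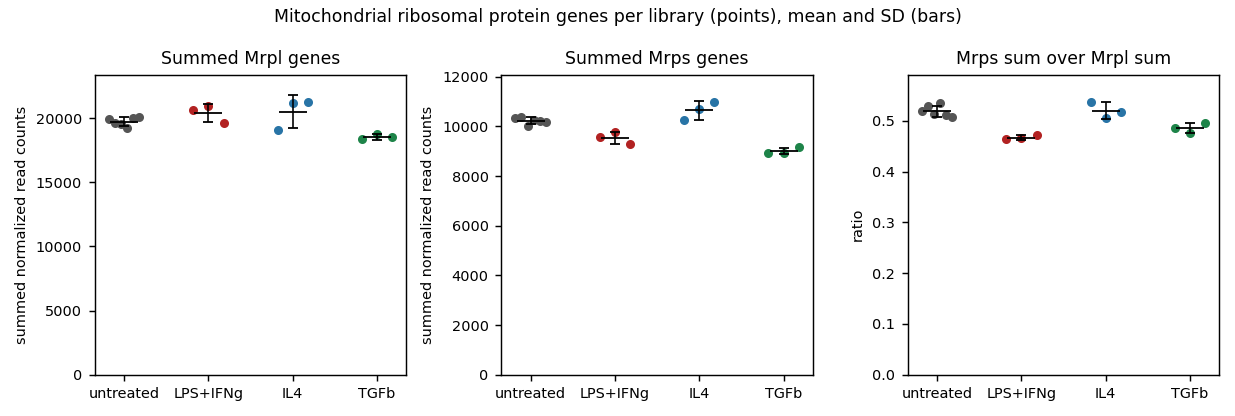
Summed normalized read counts of the Mrpl genes (left) and Mrps genes (middle) and the ratio of the sums (right) in each library, by group; points are libraries, bars the mean and SD. The ratio lies at or below 0.4729 in LPS+IFNg and 0.495 in TGFb libraries and at or above 0.5074 in untreated libraries. The Mrpl sum includes Mrpl52, which rose with TGFb.

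LPS+IFNg split the family. At an adjusted p below 0.05 in limma (Benjamini-Hochberg over 11138 tested genes), 13 of 48 Mrpl genes rose and 9 fell, and 3 of 29 Mrps genes rose and 8 fell. That is 42.9% of the members, where 58.9% of all tested genes were called (29.5% higher, 29.4% lower). The median log2 fold change was 0.01 for Mrpl and -0.04 for Mrps, beside 0.0039 for all genes. The split depends on scaling: with libraries rescaled to the same total, which moved the median of all genes to -0.12, Mrpl genes divided into 6 higher and 16 lower (median -0.12) and Mrps genes into 1 and 12 (median -0.16), and quantile normalization gave 8 and 13, and 1 and 11.

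The rises were led by large-subunit genes. Mrpl52 (chr14:54426909-54429756), specific to mitochondria, had 322 to 478 normalized counts in untreated libraries, with a median of 372, and 803, 850 and 622 with LPS+IFNg. Every stimulated library lay above every untreated one, a log2 fold change of 0.96 ± 0.17 (SE; adjusted p = 7.02e-05). Mrpl27 (chr11:94653767-94660089), whose bacterial counterpart reaches the peptidyl transferase centre, went from 153 to 189 (median 165) to 323, 310 and 342. Its untreated and stimulated libraries did not overlap either (adjusted p = 9.05e-09), and its log2 fold change was 0.96 ± 0.08. A lack of overlap is common among called genes and held for 89.7% of all genes called with IL4. That share was not counted for LPS+IFNg or TGFb against untreated.

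Mrpl13 (chr15:55534094-55557748), a homologue of a bacterial large-subunit protein, had 160 to 221 (median 195) in untreated and 315, 311 and 392 in stimulated libraries. Mrpl38 (chr11:116131817-116138868), a mitochondria-specific protein of the central protuberance, had 325 to 400 (median 377) and 661, 672 and 627. Mrpl39 (chr16:84717576-84735742), related to a domain of threonyl-tRNA synthetase, had 350 to 387 (median 368) and 613, 603 and 549. In all 3 the groups were fully apart, with log2 fold changes of 0.83 ± 0.11, 0.81 ± 0.08 and 0.67 ± 0.06 (SE; limma adjusted p = 2.37e-06, 5.35e-08 and 4.26e-08). None of these 3 genes was called with IL4 or TGFb. Mrpl35 followed at 0.56 ± 0.09, with 189 to 236 (median 214) against 316, 292 and 339.

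In the small subunit Mrps33 and Mrps15 rose with no overlap between groups. Mrps33, specific to mitochondria, went from 208 to 269 (median 235) to 301, 312 and 287, a log2 fold change of 0.36 ± 0.08 (SE; limma adjusted p = 0.00111). Mrps15 had 210 to 279 (median 252) and 297, 303 and 295 (0.29 ± 0.10, limma adjusted p = 0.0162), and this call was lost under both other scalings. Mrps10 had 194 to 262 (median 248) and 369, 294 and 260, so the groups overlapped (0.38 ± 0.14, limma adjusted p = 0.0244). Its call was lost under both other scalings, without LPS+IFNg replicate 1, the highest library (0.24), and without untreated replicate 1 or 3, with adjusted p of up to 0.181 over these settings.

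The falls were led by Mrpl41 (chr2:24974117-24975098), a mitochondria-specific protein of the large subunit. It had 544 to 656 normalized counts in untreated libraries, with a median of 598, and 373, 352 and 301 with LPS+IFNg. The groups were far apart, with a log2 fold change of -0.80 ± 0.08 (SE; limma adjusted p = 6.61e-08). Mrps26 (chr2:130563742-130568695), also specific to mitochondria, went from 644 to 858 (median 800) to 488, 539 and 430, again without overlap (-0.66 ± 0.10, limma adjusted p = 1.64e-05). Mrps7, a protein of the head of the small subunit, fell from 427 to 451 (median 436) to 333, 367 and 295 (-0.41 ± 0.06). Mrps21, the most abundant member per kb, fell from 664 to 712 (median 683) to 508, 630 and 482 (-0.35 ± 0.06).

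Further large-subunit genes fell by smaller steps, each without overlap: Mrpl51 by 0.40, Mrpl50 by 0.39, Mrpl49 and Mrpl18 by 0.33 and Mrpl20 by 0.27 on the log2 scale. Without LPS+IFNg replicate 3 the fall of Mrpl18 was 0.21 and it was still called. Mrpl18 binds in the central protuberance, and the bacterial relative of Mrpl20 acts in assembly. In the small subunit Mrps23 fell by 0.30, Mrps18b by 0.29, and Mrps14 by 0.26. The other called members had log2 fold changes between 0.39 (Mrpl32) and -0.25 (Mrpl40), among them Mrpl53, Mrpl54 and Mrpl44 on the higher side and Mrpl46, Mrpl33 and Mrps27 on the lower.

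Read by descent, 18 of the 28 mitochondria-specific members were called with LPS+IFNg (8 higher and 10 lower, 64.3%), and 15 of the 48 with a bacterial homologue (8 higher and 7 lower, 31.2%). Both shares stand beside 58.9% for all genes, and the difference between the classes was not tested. With libraries rescaled to the same total the calls were 14 (4 higher and 10 lower) and 21 (3 and 18), which brings the classes close in share. Quantile normalization left them further apart, with 5 higher and 10 lower of the 28, and 4 higher and 14 lower of the 48. With TGFb the classes were alike in share, 12 of 28 (42.9%) and 22 of 48 (45.8%).

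**Figure D3:**
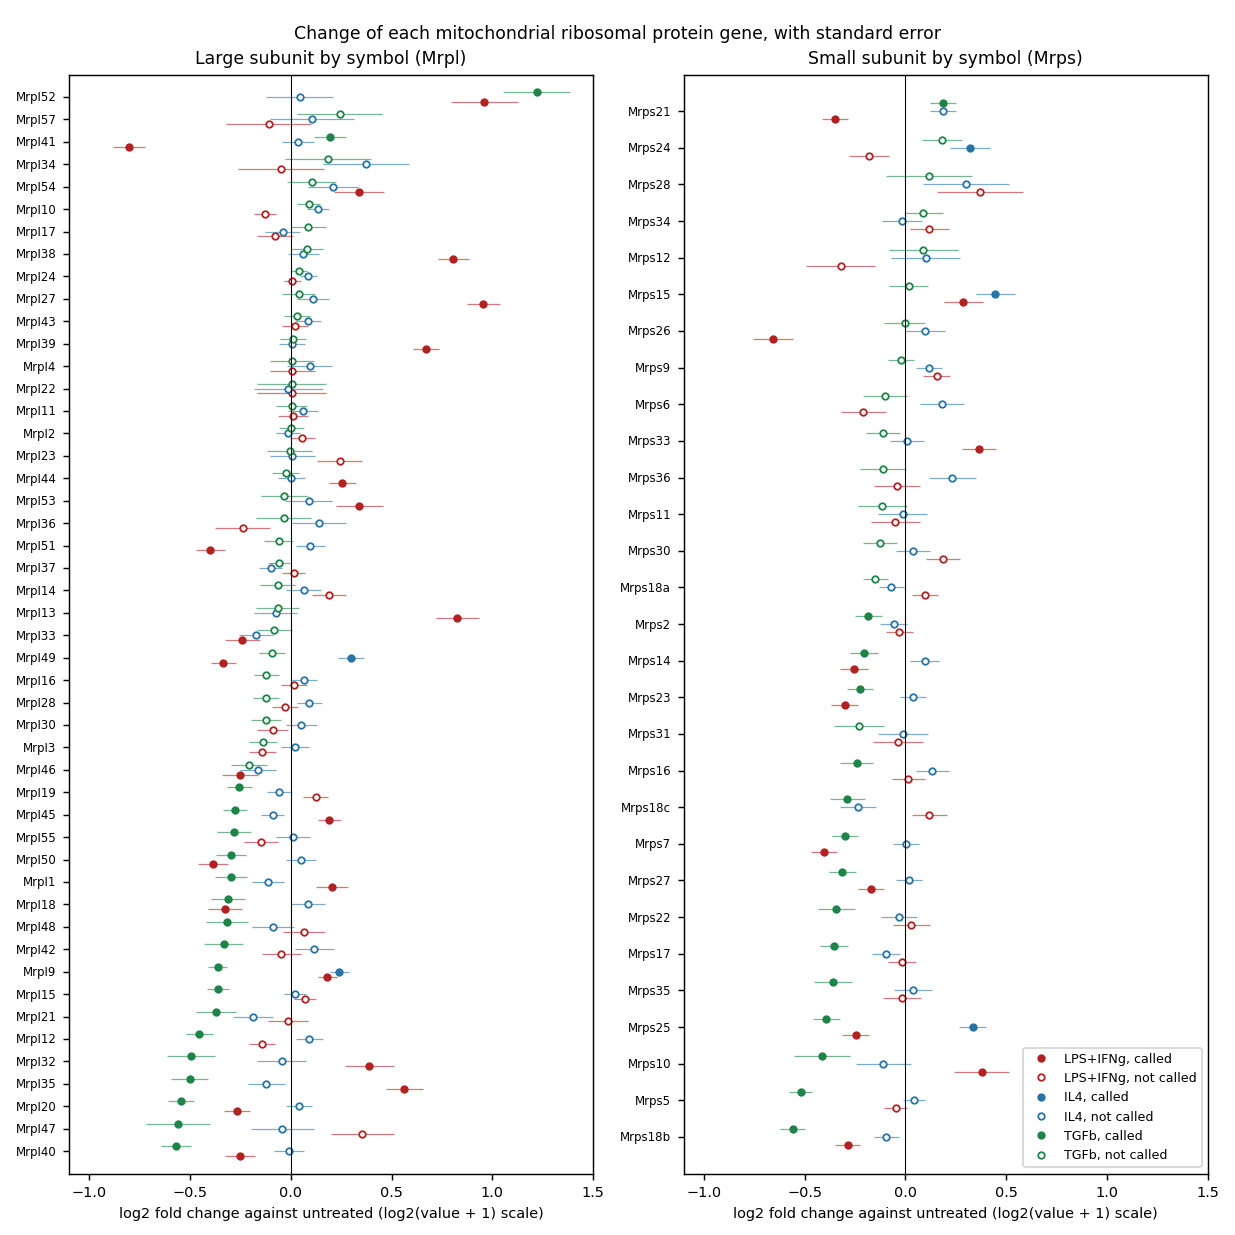
Log2 fold change against untreated for each Mrpl gene (left) and Mrps gene (right) with LPS+IFNg (red), IL4 (blue) and TGFb (green), on the log2(value + 1) scale; bars are standard errors and filled points are called at adjusted p below 0.05. Red points lie on both sides of 0, from Mrpl52 at 0.96 to Mrpl41 at -0.80, while filled green points lie below 0 except for Mrpl52, Mrpl41 and Mrps21; with libraries rescaled to the same total more of the red calls fall below 0 (7 higher and 28 lower).

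IL4 moved few members. Of the Mrpl genes 2 rose and 0 fell in limma, and of the Mrps genes 3 rose and 0 fell. Together this is 6.49% of the members, beside 17.2% of all tested genes (9.89% higher, 7.33% lower). The share of all genes was 24.9% without LPS+IFNg replicate 3 and 23% in a fit on the 2 groups only. Leaving out single libraries gave 2 to 3 Mrpl and 2 to 4 Mrps genes higher. At an unadjusted p below 0.05, 0 Mrpl genes and 1 Mrps gene were lower. The median log2 fold change was 0.04 for both subunits, and it turned to -0.02 (Mrpl) and -0.03 (Mrps) with libraries rescaled to the same total, which moved the median of all genes to -0.06.

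The groups did not overlap in any of the 5 genes that rose, as in 89.7% of all genes called with IL4. Mrps15 went from 210 to 279 (median 252) to 285, 352 and 367, a log2 fold change of 0.44 ± 0.10 (SE; limma adjusted p = 0.00326). Mrps25, a mitochondria-specific protein, went from 347 to 406 (median 361) to 483, 455 and 457 (0.33 ± 0.07, limma adjusted p = 0.00167). Mrps24 went from 131 to 167 (median 156) to 180, 213 and 183 (0.32 ± 0.10, limma adjusted p = 0.0323); its call was lost when libraries were rescaled to the same total and without any of untreated replicates 2 and 3 and IL4 replicates 2 and 3. In the large subunit Mrpl49 went from 418 to 451 (median 426) to 500, 573 and 523 (0.30 ± 0.06), and Mrpl9 from 895 to 1006 (median 955) to 1071, 1128 and 1175 (0.24 ± 0.05).

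TGFb lowered members of both subunits. Of the Mrpl genes 2 rose and 17 fell, and of the Mrps genes 1 rose and 14 fell. Called lower were thus 35.4% of Mrpl and 48.3% of Mrps genes, beside 23.4% of all tested genes, and called higher 4.17% and 3.45% beside 24.1%. In all, 44.2% of the members and 47.5% of all genes were called. The median log2 fold change was -0.07 for Mrpl and -0.18 for Mrps, beside 0.01 for all genes. The direction was the same with libraries rescaled to the same total (1 higher and 23 lower for Mrpl, 0 and 15 for Mrps) and with quantile normalization (2 and 18, 1 and 15).

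The largest falls were of similar size in both subunits. Mrpl40 (chr16:18872018-18876862), specific to mitochondria, went from 222 to 275 normalized counts (median 254) to 168, 171 and 173, all below the lowest untreated library. Its log2 fold change was -0.57 ± 0.07 (SE; limma adjusted p = 4.65e-06). Mrps18b (chr17:35910379-35916389) went from 643 to 785 (median 686) to 481, 482 and 449 (-0.56 ± 0.06, limma adjusted p = 7.06e-07). Mrpl20 (chr4:155802878-155809975) went from 432 to 523 (median 469) to 323, 327 and 320, a tight group far below untreated (-0.54 ± 0.06, limma adjusted p = 1.23e-06).

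Mrps5 (chr2:127587222-127606829), a homologue of a bacterial protein known for its part in decoding accuracy, went from 525 to 596 (median 565) to 415, 365 and 396 (-0.52 ± 0.06, limma adjusted p = 4.99e-07). Mrpl12, the abundant stalk protein, went from 1390 to 1488 (median 1448) to 1013, 1065 and 1080, a drop in every library (-0.45 ± 0.07, limma adjusted p = 1.45e-05). Mrpl32, whose precursor is matured by the m-AAA protease before it joins the large subunit, went from 118 to 188 (median 147) to 99.9, 111 and 100 (-0.50 ± 0.12). Afg3l2, a subunit of that protease, fell as well, from 2588 ± 106 (SD, n = 6) to 1974 ± 42.4 (n = 3), while its partner Spg7 rose from 393 ± 15.4 to 486 ± 29.2 (limma adjusted p = 1.74e-06 and 0.000865).

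Mrpl35, a homologue of a bacterial large-subunit protein, had 160, 134 and 158 with TGFb against 189 to 236, without overlap (-0.50 ± 0.09 SE, limma adjusted p = 0.000193). Mrps17 and Mrps35 fell by 0.35 and 0.36 on the log2 scale without overlap between groups. Mrpl47 had 70 to 100 (median 97.4) in untreated and 59.8, 83.2 and 48.8 in TGFb libraries; the groups overlapped, and the fall of 0.56 ± 0.16 (SE, limma adjusted p = 0.00659) lost its call without TGFb replicate 3, at an adjusted p of 0.0744. The other members that fell lay between -0.41 (Mrps10) and -0.18 (Mrps2). The call of Mrps10, at 177, 147 and 206 against 194 to 262, was lost without TGFb replicate 2.

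Only Mrpl52, Mrpl41 and Mrps21 were called higher with TGFb. Mrpl52 had 913, 849 and 942 against 322 to 478 in untreated cells, the largest change of any member in the 3 comparisons with untreated (log2 fold change 1.22 ± 0.17 SE, limma adjusted p = 7.63e-06). The rises of Mrpl41 and Mrps21 were small. Mrpl41 had 652, 741 and 661 and overlapped untreated (0.20 ± 0.08, limma adjusted p = 0.0486), and Mrps21 had 781, 760 and 798 with no overlap (0.19 ± 0.06, limma adjusted p = 0.022). Both lost their calls when libraries were rescaled to the same total, without the 3 shallowest libraries, and without TGFb replicate 1 or 3, and Mrpl41 also without TGFb replicate 2, IL4 replicate 2 or untreated replicate 2, 5 or 6.

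**Figure D4:**
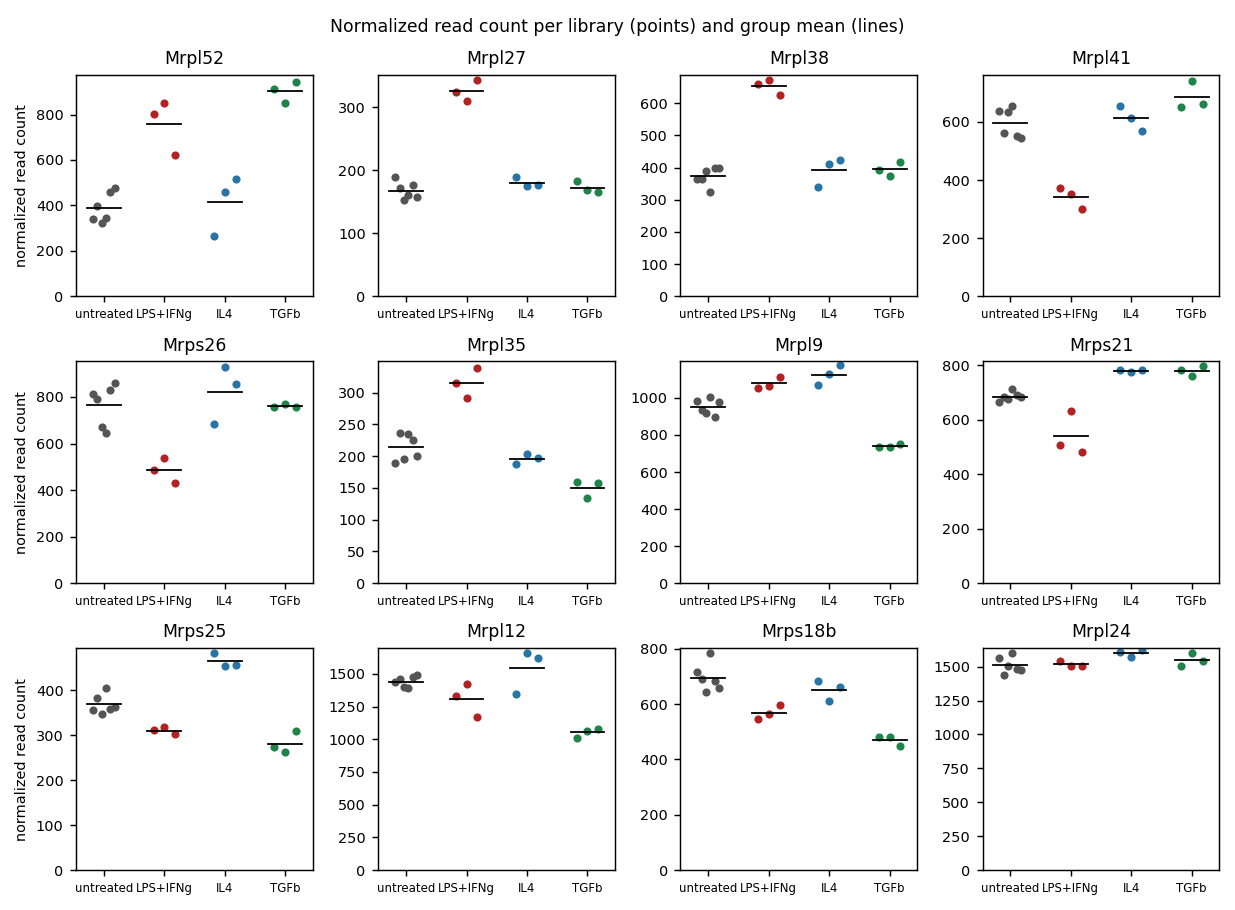
Normalized read count of 12 members in each library (points) with the group mean (line), for untreated, LPS+IFNg, IL4 and TGFb cells; each panel starts at 0. Mrpl27, Mrpl38 and Mrpl35 are highest with LPS+IFNg, Mrpl41 and Mrps26 lowest with LPS+IFNg, and Mrpl12 and Mrps18b lowest with TGFb, while Mrpl24 is level across the groups.

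The stimuli were also compared directly, so that no untreated library is on either side of the difference. The untreated libraries still enter the shared estimate of spread behind these tests. Between LPS+IFNg and TGFb, 33 members were higher with LPS+IFNg (21 Mrpl and 12 Mrps) and 7 lower (4 and 3), which is 51.9% of the members beside 62.6% of all genes (31.9% higher, 30.8% lower). The libraries of the groups did not overlap in any of the 40 called members, as in 95.5% of all called genes. The largest difference was in Mrpl35, at 316, 292 and 339 with LPS+IFNg against 160, 134 and 158 with TGFb, a log2 difference of 1.06 ± 0.11 (SE; limma adjusted p = 6.74e-08). Mrpl27, Mrpl47, Mrpl13 and Mrpl32 followed at 0.92, 0.92, 0.89 and 0.88, and Mrps10, Mrps33 and Mrps5 led the small subunit at 0.79, 0.48 and 0.47. In the other direction, Mrpl41 differed by -1.002 ± 0.09, at 373, 352 and 301 against 652, 741 and 661. Mrps26, Mrps21, Mrps24, Mrpl51 and Mrpl49 fell by 0.65, 0.54, 0.37, 0.34 and 0.24, and the call of Mrps24 was lost without TGFb replicate 3 (limma adjusted p = 0.0596).

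Between IL4 and TGFb, 30 members were higher with IL4 (17 Mrpl and 13 Mrps) and 1, Mrpl52, was lower, 40.3% of the members beside 39.7% of all genes (20.7% higher, 19% lower). No Mrps gene was lower, with 0 at an unadjusted p below 0.05 in limma. The largest difference was that of Mrpl52, at 265, 460 and 517 with IL4 and 913, 849 and 942 with TGFb (log2 difference -1.18 ± 0.19 SE, limma adjusted p = 7.6e-05). Among the genes higher with IL4, Mrps25 differed most, at 483, 455 and 457 with IL4 and 273, 263 and 309 with TGFb (log2 difference 0.73 ± 0.08 SE, limma adjusted p = 4.87e-07), then Mrpl9 at 0.60 and Mrpl20 at 0.58. Without TGFb replicate 1, 10 Mrpl genes were called higher in place of 17. Between LPS+IFNg and IL4, 14 members were higher with LPS+IFNg (11 Mrpl and 3 Mrps) and 20 lower (10 and 10), 44.2% beside 57.7% of all genes (28.8% in each direction). Mrpl52, Mrpl13 and Mrpl27 led at 0.92, 0.90 and 0.84, and Mrpl41, Mrps26 and Mrpl49 were at the other end at -0.84, -0.75 and -0.63.

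Several members were called with more than 1 stimulus, and their values stand side by side here, since the comparisons share the untreated libraries. Mrpl9 had a log2 fold change of 0.18 ± 0.05 (SE) with LPS+IFNg, 0.24 ± 0.05 with IL4 and -0.36 ± 0.05 with TGFb, where its libraries read 733, 736 and 749. The rise with LPS+IFNg lost its call when libraries were rescaled to the same total (adjusted p = 0.319). Mrpl35 had 0.56 ± 0.09, -0.12 ± 0.09 and -0.50 ± 0.09 in the same order. Mrps25 had -0.25 ± 0.07, 0.33 ± 0.07 and -0.39 ± 0.07. Mrpl32 had 0.39 ± 0.12 with LPS+IFNg, where untreated libraries from 118 to 188 overlapped with 187, 192 and 198, and its call there was lost under both other scalings.

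Mrpl1, the stalk protein beside the exit site for tRNA, had 325, 280 and 301 with LPS+IFNg and 226, 186 and 230 with TGFb, around untreated libraries of 248 to 283. The first of these changes (0.20 ± 0.08 SE) lost its call under both other scalings and without any of 4 single libraries, untreated replicates 3 and 6 and LPS+IFNg replicates 1 and 3; the second (-0.30 ± 0.08) lost it without TGFb replicate 2 and without the 3 shallowest libraries (-0.20). Mrpl45, which anchors the ribosome to the inner membrane, had 0.19 ± 0.06 with LPS+IFNg, lost under both other scalings, and -0.28 ± 0.06 with TGFb. Between LPS+IFNg and TGFb these 2 genes differed by 0.50 ± 0.09 and 0.47 ± 0.07 on the log2 scale (limma adjusted p = 9.78e-05 and 8.41e-06).

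The Mrps18 paralogues, related proteins that occupy different places in the ribosome, differed in level and in response. Per kb, the untreated levels were 645 ± 46.9 (SD, n = 6) for Mrps18b, 486 ± 15.8 for Mrps18a and 285 ± 13.4 for Mrps18c. With LPS+IFNg Mrps18b fell (546, 565 and 596 normalized counts), whereas Mrps18a (467, 501 and 413 against 413 to 448) and Mrps18c (234, 239 and 290 against 222 to 252) passed no test at adjusted p = 0.193 and 0.258 in limma. With TGFb Mrps18b fell by 0.56 and Mrps18c by 0.29 on the log2 scale, and Mrps18a had -0.15 ± 0.06 (SE, limma adjusted p = 0.0554). The differences between paralogues were not tested.

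Many members lie close to other genes, and strand use in the counting is not stated in the labels, so reads of overlapping genes cannot be told apart. By the GENCODE M21 annotation of GRCm38, the members lie on 17 chromosomes, 32 share exon bases with another gene, and 17 share over 10% of their exon bases. Mrps25 shares 69.8% of them with Nr2c2 on the opposite strand, which rose with LPS+IFNg from 384 to 646 while Mrps25 fell, and was not called with IL4 or TGFb. Mrps34 shares 63.4% with Mapk8ip3 and 37% with Nme3, and Mrpl53 88% with the predicted gene Gm42688. Mrpl13 shares 4.2% with Mtbp, which rose with LPS+IFNg from 98.6 to 155 (log2 fold change 0.65, limma adjusted p = 0.000413). Mrpl27 shares 7.6% with Eme1 on the opposite strand, which also rose with LPS+IFNg, from 99 to 123 (log2 fold change 0.32, limma adjusted p = 0.0397). Mrpl18 shares 10.1% with Tcp1, which fell with TGFb by 0.43 on the log2 scale, and Mrps24 15.4% with Urgcp on the same strand, which was not called with IL4. Mrpl52, Mrpl38, Mrpl39, Mrpl35 and Mrpl41 share no exon bases with an annotated gene.

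A divergent gene starts within 1000 bases of 23 members, a layout common among housekeeping genes. Mrpl41 lies 935 bases from the start of Pnpla7, a lysophospholipase gene, which fell with LPS+IFNg (2057 to 1321, log2 fold change -0.64) and rose with TGFb (3051, 0.57). Mrpl32 lies 75 bases from Psma2, a proteasome subunit gene, which rose with LPS+IFNg from 499 to 759 (0.61) and fell with TGFb to 437 (-0.19). Mrpl40 lies 175 bases from Hira, a histone chaperone gene, which fell with LPS+IFNg by 0.39 and with TGFb by 0.26 on the log2 scale. Other pairs went separate ways: Mrpl50 fell with LPS+IFNg while Zfp189, 83 bases away, rose from 57.1 to 77.9, and Mrpl49 fell while Fau, 59 bases away, rose from 1938 to 2164. These pairs were picked after their values were seen.

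Genes that work with the mitochondrial ribosome were counted the same way, and their shares stand beside the 58.9% (LPS+IFNg), 17.2% (IL4) and 47.5% (TGFb) of all tested genes that were called. Mitochondrial ribosomal proteins with other symbols numbered 6, of which 2 rose and 2 fell with LPS+IFNg (66.7%) and 0 rose and 3 fell with TGFb (50%). Ptcd3, a small-subunit protein, fell with both, from 1037 ± 38.2 (SD, n = 6) to 690 ± 91.9 (n = 3) and 654 ± 38.9 (n = 3). Of 36 assembly and rRNA modification genes, 6 rose and 9 fell with LPS+IFNg, 1 rose and 1 fell with IL4, and 2 rose and 9 fell with TGFb, which is 41.7%, 5.56% and 30.6% called. Tfb1m, a methyltransferase of the small rRNA, rose with LPS+IFNg from 45.8 ± 7.83 to 83.3 ± 12.4, and Rbfa, an assembly factor, fell from 350 ± 26.3 to 233 ± 29.1 (limma adjusted p = 0.00077 and 4.34e-06).

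Of 17 mitochondrial translation factors, 2 rose and 7 fell with LPS+IFNg, 2 rose and 0 fell with IL4 (1 lower at an unadjusted p below 0.05 in limma), and 0 rose (0 unadjusted) and 4 fell with TGFb, which is 52.9%, 11.8% and 23.5% called. Gfm1, an elongation factor, had 1654 ± 32 (SD, n = 6) in untreated, 1806 ± 45 with IL4 and 1177 ± 12 with TGFb (limma adjusted p = 0.0264 and 5.27e-09). Of 19 mitochondrial aminoacyl-tRNA synthetases, 4 rose and 5 fell with LPS+IFNg, and 0 rose (0 unadjusted) and 5 fell with TGFb, which is 47.4% and 26.3% called. The largest rises there, Kars and Gars, belong to enzymes that also serve the cytosol. Of 21 genes of mitochondrial genome expression, 3 rose and 8 fell with LPS+IFNg, and 0 rose (0 unadjusted) and 13 fell with TGFb, which is 52.4% and 61.9% called. The falls with TGFb were led by the tRNA-processing gene Elac2, from 652 ± 36.3 to 382 ± 18.8. Of 33 import and proteostasis genes, 6 rose and 12 fell with LPS+IFNg, 3 rose and 0 fell with IL4 (0 unadjusted), and 2 rose and 18 fell with TGFb, which is 54.5%, 9.09% and 60.6% called. With libraries rescaled to the same total, the counts with LPS+IFNg became 4 higher and 11 lower for assembly genes, 1 and 8 for translation factors, 2 and 5 for synthetases, 1 and 10 for genome expression and 3 and 18 for import, where the count with IL4 became 1 and 1.

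Among 17 regulators of mitochondrial biogenesis, 9 rose and 2 fell with LPS+IFNg and 1 rose and 6 fell with TGFb (64.7% and 41.2% called, beside 58.9% and 47.5% of all genes); with libraries rescaled to the same total these counts were 7 and 4, and 1 and 8. Myc rose with LPS+IFNg from 20.9 ± 5.7 (SD, n = 6) to 114 ± 53.2 (n = 3), and Gabpb1, a subunit of the ETS factor GABP, from 218 ± 25.5 to 439 ± 66.9 (limma adjusted p = 1.83e-07 and 4.55e-07). Ppargc1b, a coactivator of mitochondrial genes, rose with IL4 from 297 ± 24.5 to 383 ± 17 (limma adjusted p = 0.00276).

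The proteins of the cytosolic ribosome, whose genes are named Rpl and Rps, were counted as well. Of 76 such genes, 45 rose and 0 fell with LPS+IFNg (0 lower at an unadjusted p below 0.05 in limma), 4 rose and 0 fell with IL4 (0 unadjusted), and 23 rose and 2 fell with TGFb. Called were thus 59.2%, 5.26% and 32.9%, beside 58.9%, 17.2% and 47.5% of all genes; called higher were 59.2% with LPS+IFNg and 30.3% with TGFb, beside 29.5% and 24.1%. With libraries rescaled to the same total the first count was 13 higher and 2 lower, and with quantile normalization 13 and 3. For TGFb the counts were 14 and 4, and 20 and 4. The median log2 fold change with TGFb was 0.08 for these genes and -0.12 for the 77 mitochondrial members. Reads of cytosolic ribosomal protein genes can be split with their many pseudogenes, so single values are uncertain. The difference between the families was not tested.

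**Figure D5:**
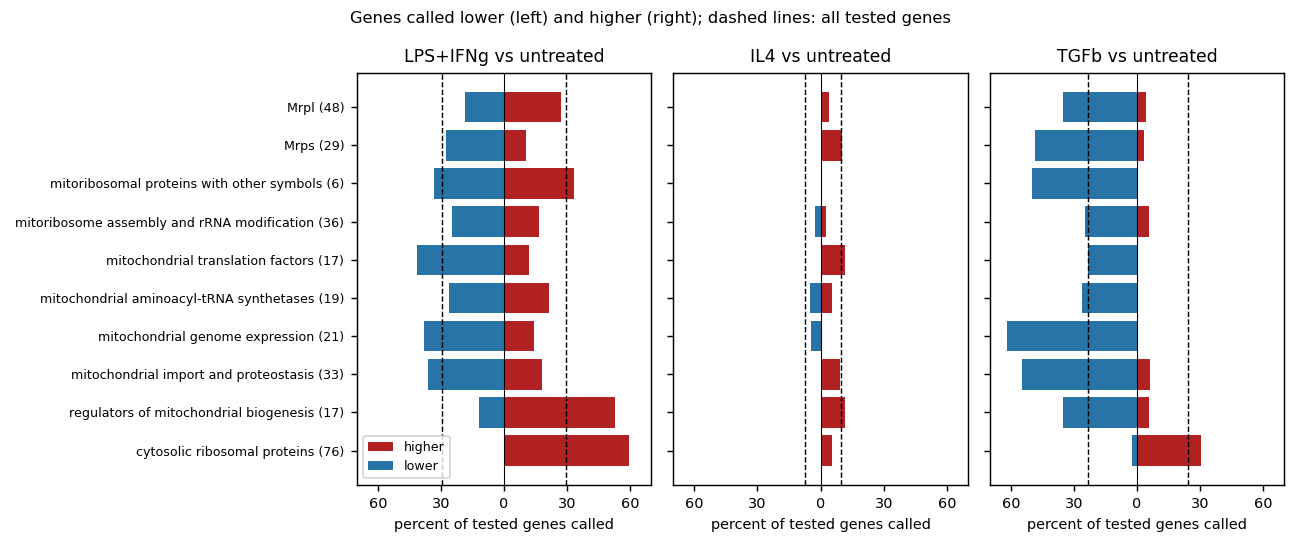
Share of the tested genes of each list called lower (blue, to the left) or higher (red, to the right) at adjusted p below 0.05 against untreated, for LPS+IFNg, IL4 and TGFb; the number of genes is in brackets and dashed lines give the share of all tested genes. With TGFb the bars of the mitochondrial lists lie mainly to the left, 48.3% for Mrps and 35.4% for Mrpl, and that of the cytosolic ribosomal proteins mainly to the right; their rise with LPS+IFNg, 45 of 76 genes, drops to 13 when libraries are rescaled to the same total.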

How the data were processed

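RNA-seq libraries of 15 samples were prepared, per the labels' protocols, by the Illumina TruSeq RNA kit from TRIZOL-extracted total RNA. The submitters' processing notes name TopHat2 2.0.3, Partek 6.6, R 3.0.2, DESeq2 and the build mm10; annotation, counting rule and strandedness are not given in the sources used here. Deposited values are a normalized signal: read counts that the authors divided by 1 factor per library, with values below 1 set to 1, both inferred from the values. The value of 1 read, estimated from the low values (100% whole within 0.05 reads), gave the depths of 2682564 to 18676181 reads and the choice of the 3 shallowest libraries left out in 1 alternative.

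Groups came from the labelled stimulation. limma 3.58.1 in R 4.3.3 was fitted on log2(value + 1) over all 15 libraries with 4 group means and the empirical Bayes trend; a gene was tested if 3 or more libraries reached a value of 10 (11138 genes), and called where p, adjusted by Benjamini-Hochberg in each of 6 comparisons, was below 0.05. Fold changes are on that log2 scale, which understates changes of low genes. The code was tested on simulated data. Members and lists were chosen with earlier results of these data known. Named were up to 6 called members per subunit and direction in each comparison with untreated by size of change, up to 3 between stimuli, those called in opposite directions, the Mrps18 paralogues, the extremes per kb, and up to 3 called genes per direction of other lists; from that set the text takes those it describes. Positions and lengths came from GENCODE M21 (GRCm38). Alternatives were pseudocount, filter, scaling, 2-group fits, libraries left out and subunit by structure. Replicate numbers follow accession order and pair nothing.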

Additional observations from a re-analysis of the deposited data

Results flagged for a closer look

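For 34 named members and for the summed Mrpl and Mrps values, the 6 untreated values were searched for a library far from the others, and 2 stood out, where chance flags about 1 group in 20. Mrpl47 had 70 normalized counts in untreated replicate 4, while the other 5 untreated libraries had 94.9 to 100. Mrpl51 had 326 in untreated replicate 1, while the others had 386 to 412. These are 2 of the 3 libraries with the fewest reads. Without these 3 libraries, neither the fall of Mrpl51 with LPS+IFNg nor that of Mrpl47 with TGFb lost its call.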

How the results depend on the processing

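With libraries rescaled to the same total, LPS+IFNg raised 6 and lowered 16 Mrpl genes (median log2 fold change -0.1157) and raised 1 Mrps gene (median -0.1639). In the same setting IL4 lowered 1 Mrps gene (median -0.0283), and TGFb raised 1 Mrpl gene (median -0.1494) and 0 Mrps genes (median -0.2614); the median of all genes moved to -0.1206, -0.0636 and -0.0615 with the 3 stimuli. In that setting the share of calls that were higher over all genes went from 50% to 35.5% with LPS+IFNg, from 57.4% to 33.9% with IL4 and from 50.8% to 37.8% with TGFb. Quantile normalization left 8 Mrpl genes (median -0.0658) and 1 Mrps gene (median -0.1137) higher with LPS+IFNg. A fit on the libraries of untreated and IL4 only gave 1 Mrps gene lower. Without the 3 shallowest libraries, TGFb raised 1 Mrpl and 0 Mrps genes.

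Leaving out single libraries gave the following ranges. With LPS+IFNg, 2 to 5 Mrps genes were higher, and the medians were -0.0005 to 0.047 (Mrpl) and -0.0654 to -0.0159 (Mrps). With IL4, 0 to 1 Mrps genes were lower and the Mrps median was 0.0151 to 0.0883. With TGFb, 1 to 2 Mrpl and 0 to 1 Mrps genes were higher, and the medians were -0.1335 to -0.0582 and -0.1986 to -0.1522. Of the Mrps genes, 2 to 5 were higher with LPS+IFNg than with IL4 and 2 to 5 lower than with TGFb, and 10 to 17 Mrpl genes were higher with IL4 than with TGFb.

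Of 80 results for named members, 66 kept their call and direction in all alternatives run, 14 lost the call in at least 1 and 0 reversed. The cause of these changes was not tested. edgeR on recovered reads was not run. No paired analysis was possible because the labels carry no replicate numbers shared between groups.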
